A study of Mus musculus with 16 samples.

Results

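The 10 genes described here are the transcription factor gene Nfe2l2, which encodes NRF2, and 9 of its best known antioxidant targets, Hmox1, Nqo1, Gclm, Gclc, Slc7a11, Txnrd1, Srxn1, Gsr and Prdx1. They were chosen by their symbols among the 22287 genes of the expression table, and all 10 were among the 12514 genes that passed the expression filter and were tested. RNA-seq was performed on bone marrow derived macrophages (BMDMs) of C57BL/6J mice aged 8 weeks, with no allele or transgene given. Marrow cells were matured for 7 days with GM-CSF at 20 ng/ml (GM) or M-CSF at 50 ng/ml (M), growth factors that drive marrow precursors towards macrophages. They grew either on culture dishes whose surface is treated to promote attachment (TC) or on untreated, hydrophobic dishes (noTC). Cells then received vehicle (steady state) or the bacterial endotoxin LPS at 100 ng/ml for 3 h. The 8 groups (GM or M, TC or noTC, each with or without the suffix LPS, as in M-noTC-LPS) held 2 libraries each. The study calls the 2 biological replicates, but neither it nor the labels say whether they came from separate mice. P-values thus measure the spread between these libraries, which may not be that between mice. BMDM cultures are a mixture of cells matured outside the animal, and in such bulk RNA fewer cells of a type and less RNA per cell cannot be told apart.

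NRF2 is held at a low level by KEAP1, an adaptor that hands it to a CUL3 ubiquitin ligase. Electrophiles and oxidants modify cysteines of KEAP1, NRF2 then escapes degradation, pairs with a small MAF protein and binds antioxidant response elements, while BACH1 competes for the same elements. Its targets make and recycle glutathione, reduce thioredoxin and peroxides, and break down heme and quinones, and in macrophages several of them also respond to LPS. NRF2 is controlled largely at the level of the protein, which was not measured here.

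Total counts lay between 17527802 and 31458363 per library, and TMM factors, which correct for a few abundant genes taking up reads, ranged from 1.11 to 1.39 in vehicle and from 0.778 to 0.842 in LPS libraries. All 7 macrophage markers examined, among them Adgre1, Csf1r and Cd68, were at 1 CPM (counts scaled to the library total) or more in every group. Of 7 cardiac muscle markers, all were at 1 CPM or more in GM-TC and M-TC, where they summed to between 23.3 and 81.3 CPM, and the sum was at most 0.633 CPM in the other groups. For genes nearly absent from TC at steady state, noTC exceeded TC by a median of 0.675% (GM) and 0.600% (M) of their level in other libraries. This excess is called shared reads below. Whether it came from reads of other libraries or from expression in the noTC cells was not tested. Levels of single genes are CPM with TMM scaling. A gene was called at a Benjamini-Hochberg (BH) adjusted p under 0.05 in edgeR's quasi-likelihood fit over all 16 libraries, and log2 fold changes are given with their standard error (SE).

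Promoter windows of 300 bases, 250 before and 50 after the start site, were at hand for 7 of the 10 genes (RefSeq, GRCm38.p6), not for Hmox1, Gclc and Gsr. The motifs searched on both strands were the antioxidant response element core TGACNNNGC, the AP-1 element TGANTCA, the C/EBP-ATF element TGATGNAA and the NRF2-small Maf element TGANTCAGC, which contains an AP-1 element. The core was found in windows of 5 of the 7 genes, and 12.4% of all 32851 promoter windows held it. The AP-1 element was found in 2 genes (7.81% of all windows), the C/EBP-ATF element in 1 (3.97%) and the NRF2-small Maf element in 2 (1.19%). These matches describe letters, not binding, and a window without a match, such as that of Nqo1, says nothing of elements farther away. The stretches below are shown because their genes changed upon LPS challenge or with the dish, and capitals mark the matches.
Nfe2l2, chr2:75704869-75704913, minus strand, core: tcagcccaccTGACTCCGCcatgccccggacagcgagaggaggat
Slc7a11, chr3:50443627-50443705, minus strand, 2 C/EBP-ATF elements: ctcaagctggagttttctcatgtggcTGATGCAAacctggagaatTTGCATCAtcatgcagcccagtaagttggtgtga
Gclm, chr3:122245397-122245457, plus strand, core: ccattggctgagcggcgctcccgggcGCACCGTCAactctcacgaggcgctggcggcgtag
Txnrd1, chr10:82859088-82859148, plus strand, core: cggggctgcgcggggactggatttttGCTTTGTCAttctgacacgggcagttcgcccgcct
Srxn1, chr2:152105453-152105513, plus strand, NRF2-small Maf element: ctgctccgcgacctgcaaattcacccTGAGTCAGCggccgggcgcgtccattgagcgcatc
Prdx1, chr4:116685440-116685500, plus strand, NRF2-small Maf element overlapping a core: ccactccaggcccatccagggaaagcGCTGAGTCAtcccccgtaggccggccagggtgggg
The Txnrd1 match lay in the second of its windows, counted along the chromosome. The matches lay 240 bases before the start site in Nfe2l2, 66 and 47 in Slc7a11, 134 in Gclm, 92 in Txnrd1, 45 in Srxn1 and 133 in Prdx1. Slc7a11, which showed the largest LPS response of the 10, held neither a core nor an AP-1 element in its window.

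Upon LPS challenge the M-TC cells raised most of the program. The GM cells raised a part of it and lowered another part. All genes tested were split in this way too, by the shares given below, so the split alone does not set the program apart in GM cells. In M-TC-LPS, 8 genes were higher than in M-TC (all but Nqo1 and Gclc) and none was lower, where 37.6% of all genes tested were called higher and 36.4% lower. In M-noTC, 7 were higher (36.4% of all genes) and Gclc was lower (35.9%). In GM-TC, Nfe2l2, Slc7a11, Txnrd1, Srxn1 and Prdx1 were higher (32.8% of all genes) and Nqo1, Gclm and Gclc lower (34.2%). In GM-noTC, the same 5 and Gsr were higher (33.6%) and Gclm and Gclc lower (34.0%). LPS also changed the RNA composition: with library size alone in place of TMM, the median log2 fold change of all genes was -0.53 for GM-TC, -0.542 for GM-noTC, -0.834 for M-TC and -0.729 for M-noTC, so directions here are relative to the bulk of the genes. On that scale the counts higher and lower became 5 and 4 for M-TC, 4 and 6 for M-noTC, 3 and 6 for GM-TC, and 4 and 6 for GM-noTC. Shares of all genes are those with TMM scaling throughout, and none is given for library size alone. Slc7a11, Txnrd1 and Prdx1 were higher upon LPS challenge in all 4 settings under each scaling tried, and so were Gsr in both M settings and Srxn1 in M-TC. The Srxn1 call in GM-TC did not pass without GM-TC-LPS replicate 1 (adjusted p = 0.059 from edgeR).

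**Figure D1:**
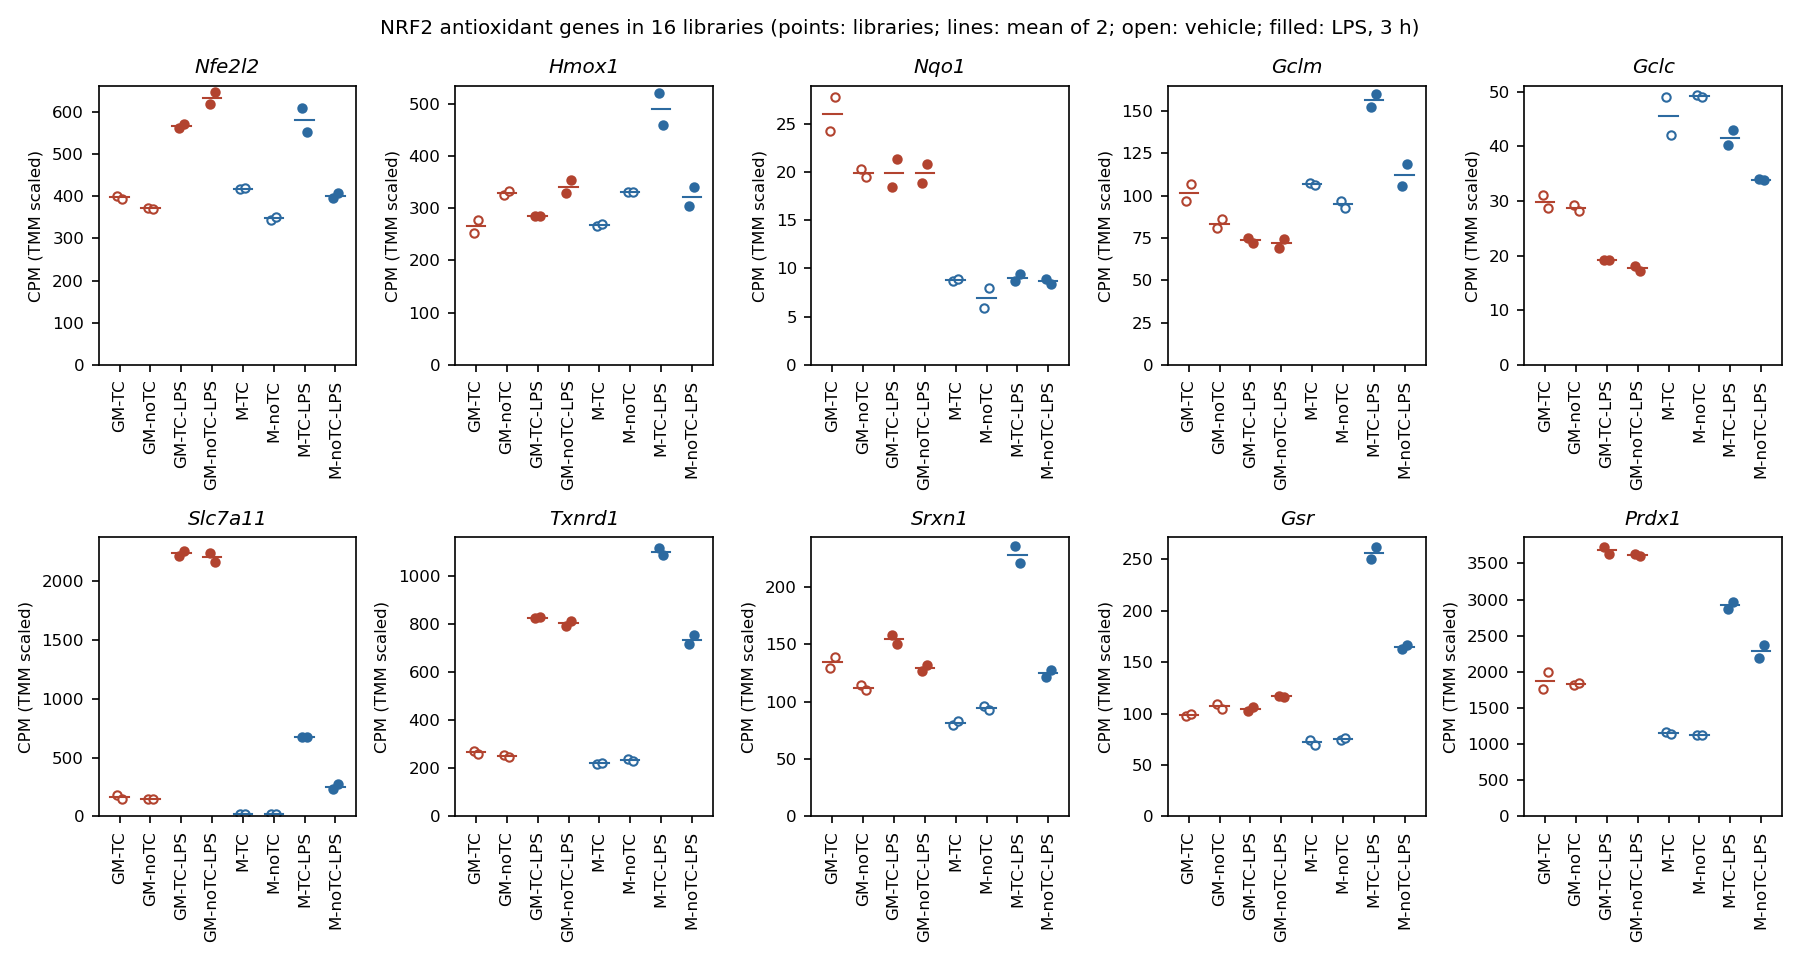
Level of each of the 10 genes in CPM with TMM scaling (vertical axes, from 0) in the 8 groups (horizontal axes), with a point per library, a line at the mean of 2, open points for vehicle and filled points for LPS. The M-TC-LPS libraries stand above the M-noTC-LPS libraries for all genes but Nqo1, while GM-TC-LPS and GM-noTC-LPS lie close together for most.

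The response of GM cells on TC dishes was smaller than that of M cells for 8 of the 10 genes, or more negative, by the test of the difference (41.1% of all genes were called in either direction). The difference in log2 response, GM minus M, was -1.75 for Gsr (SE 0.0765, adjusted p = 6.1e-14 from edgeR) and -1.29 for Srxn1 (SE 0.0818, adjusted p = 2.8e-11 from edgeR). It was -1.27 for Slc7a11, -1.01 for Gclm, -0.76 for Hmox1, -0.68 for Txnrd1, -0.50 for Gclc and -0.36 for Prdx1, and with library size alone those of Gclc and Prdx1, at -0.16 and -0.016, did not pass. On noTC dishes 3 genes differed (36.2% of all genes), Gsr by -0.999, Gclm by -0.46 and Nfe2l2 by 0.56, and with library size alone 7 did. That scaling put the median difference of all genes at 0.194. For Slc7a11 and Txnrd1 the difference on noTC dishes was 0.23 (SE 0.125) and 0.04 (SE 0.0668), neither of them called, and with library size alone they were 0.45 and 0.26, both called.

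**Figure D2:**
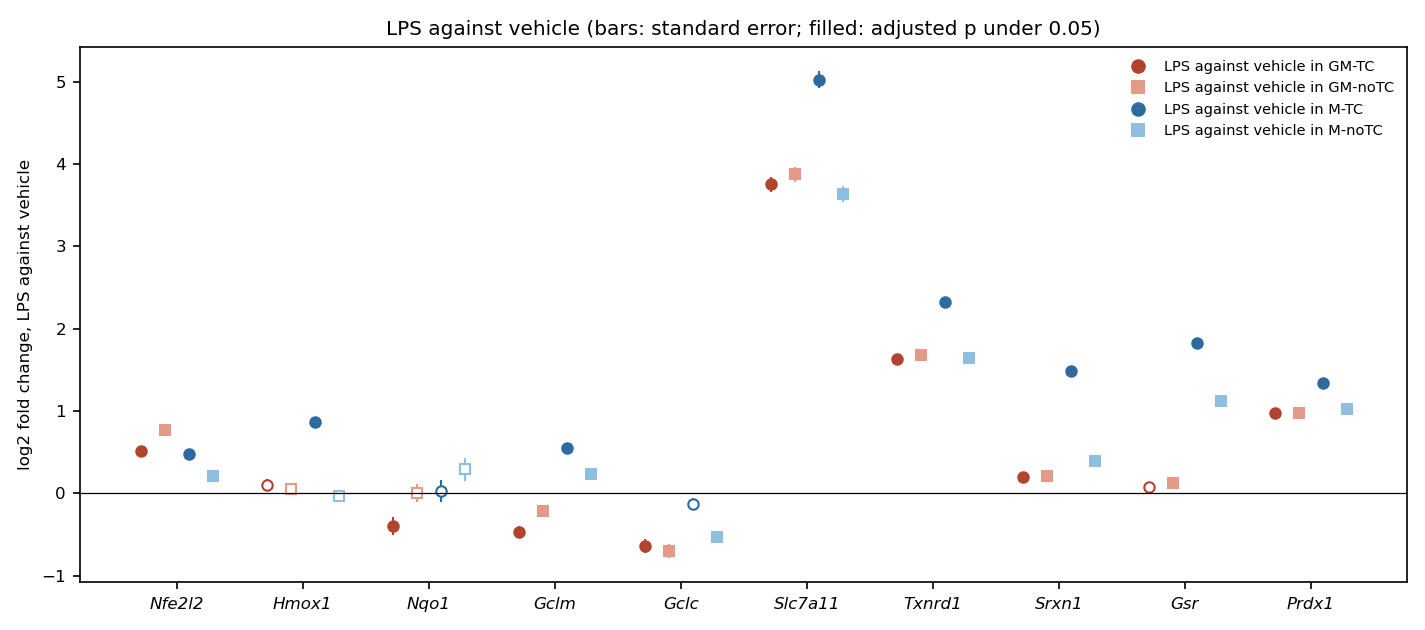
Log2 fold change of LPS against vehicle (vertical axis) for the 10 genes in GM and M cells on both dishes, with bars for the standard error and filled symbols for an adjusted p under 0.05. Slc7a11 ranges from 3.64 to 5.02, and in M cells the noTC value lies below the TC value for every gene but Nqo1. With library size alone, values shift down by about the medians given in the text, and those of Nfe2l2, Nqo1 and Gclm in M cells, Srxn1 in GM cells and in M-noTC, and Hmox1 and Gsr in GM cells turn negative.

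The dish mattered most in LPS-treated M cells. In M-noTC-LPS, 9 of the 10 genes were lower than in M-TC-LPS, none was higher, and Nqo1 alone was not called, with a log2 fold change of -0.06 (SE 0.145). Of all genes tested, 12.9% were lower and 10.4% higher in this comparison. The median of the 10 log2 fold changes was -0.56, and that of all genes was 0 to 2 decimals. With library size alone the median of all genes was 0.081. Slc7a11 was 2.67-fold lower, Srxn1 1.83-fold, Gsr 1.56-fold, Hmox1 1.52-fold, Txnrd1 1.5-fold, Nfe2l2 1.45-fold, Gclm 1.39-fold, Prdx1 1.28-fold and Gclc 1.23-fold. The 2 libraries of each group did not overlap for any of these 9, which rests on the same values as the calls and is no separate evidence. Groups of 2 libraries also stood apart without a call, as for Nqo1 and Gclm between dishes in M cells at steady state. Leaving out single libraries left 8 or 9 genes called, Gclc being the exception without M-TC-LPS replicate 2 or M-noTC-LPS replicate 1, and with library size alone 8 were lower, again without Gclc.

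As a background of LPS-induced genes, those that LPS raised over 2-fold in GM-TC were taken, 1673 in all, since no comparison within M cells uses these libraries. Of the 10 genes, only Slc7a11 and Txnrd1 met this criterion. The median log2 LPS response in M-TC was 2.29 for the 1673 genes and 1.10 for the 10, so the sets are not matched. Among them, 28.5% were lower and 7.41% higher in M-noTC-LPS than in M-TC-LPS, and their median log2 fold change was -0.105. In the test of the response itself, M-noTC against M-TC, 9 of the 10 genes had a lower log2 response on noTC dishes. For Gclc this was a larger decrease, at -0.54 in M-noTC against -0.13 in M-TC. Of all genes, 10.6% were called in either direction, and among the 1673 genes 20.3% had a lower and 3.53% a higher log2 response. The 2 comparisons share the LPS libraries. The difference in log2 response was -1.38 for Slc7a11 (SE 0.135, adjusted p = 5.2e-07 from edgeR), -1.09 for Srxn1, -0.91 for Hmox1, -0.70 for Gsr and -0.68 for Txnrd1. It was -0.40 for Gclc, -0.31 for Prdx1, -0.31 for Gclm and -0.27 for Nfe2l2, and these 4 depended on single libraries: without M-TC replicate 2 the other 5 genes were called, Prdx1 was also lost without M-noTC-LPS replicate 1, Gclc without M-TC-LPS replicate 2 or M-noTC replicate 1, and Nfe2l2 and Gclm without most of the 8 libraries. Scaled by library size alone 6 passed, without Nfe2l2, Gclm and Gclc.

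The dish changed fewer of the genes in GM cells after LPS. In GM-noTC-LPS, Hmox1 was higher (2.08% of all genes were) and Srxn1 lower (0.727%) than in GM-TC-LPS, and the other 8 genes were not called. None of the 10 LPS responses differed between the dishes in edgeR's fit (0.783% of all genes were called), 3 had an unadjusted p under 0.05, and DESeq2 called 1, Nfe2l2. Without GM-TC replicate 1, 2 were called, Nfe2l2 and Gclm, with larger responses on noTC dishes. The dish difference after LPS itself differed between GM and M cells for 8 genes (10.6% of all genes), by 1.39 for Slc7a11, 0.86 for Hmox1, 0.80 for Gsr, 0.69 for Nfe2l2, 0.62 for Srxn1, 0.54 for Txnrd1, 0.44 for Gclm and 0.33 for Prdx1 on the log2 scale, all 8 less negative or more positive in GM. The summed level of the 7 macrophage markers was 18000 to 18800 CPM in M-noTC-LPS and 21200 to 22200 CPM in M-TC-LPS, most of it Lyz2 (means of 13300 and 16300 CPM). Itgam and Cd68 went the other way, with means of 957 and 1050 CPM in M-noTC-LPS against 751 and 998 CPM in M-TC-LPS. None of 7 neutrophil and none of 5 dendritic cell markers reached 1 CPM in any M group. The part of the macrophage markers in the result was not tested.

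**Figure D3:**
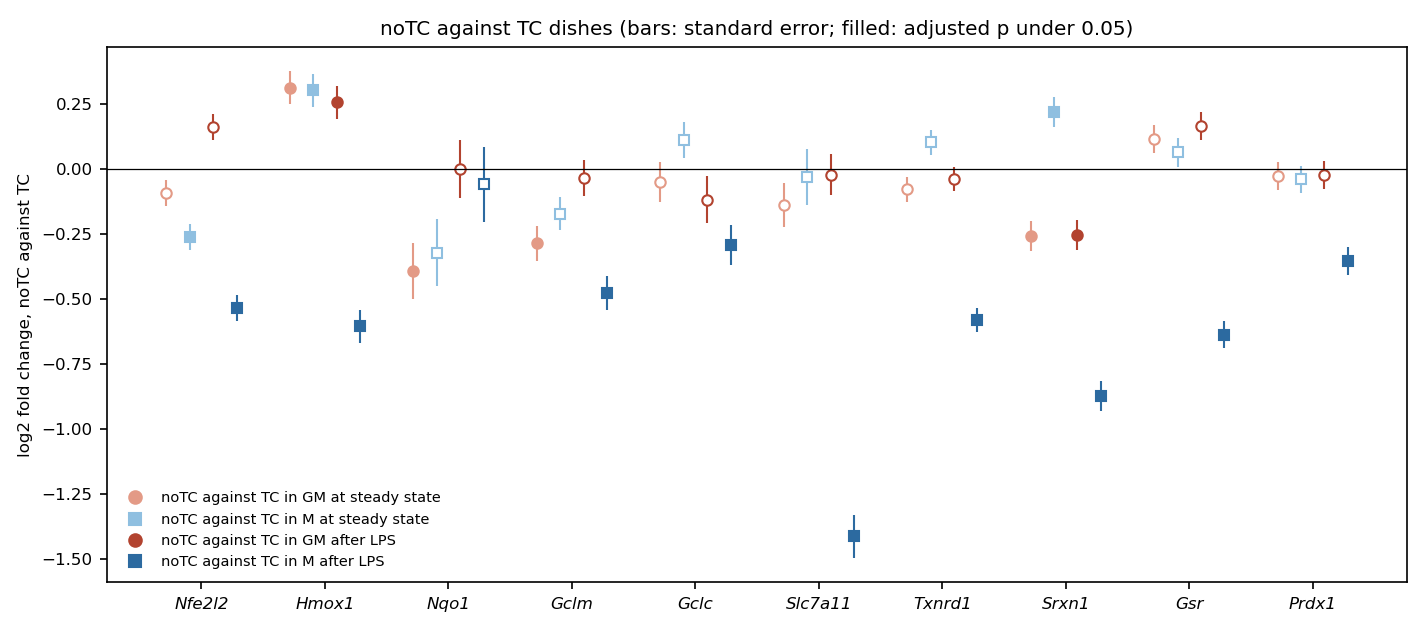
Log2 fold change of noTC against TC dishes (vertical axis) for the 10 genes in GM and M cells at steady state and after LPS, with bars for the standard error and filled symbols for an adjusted p under 0.05. The dark squares, M cells after LPS, lie between -0.29 and -1.41 for all genes but Nqo1, and the other values stay between -0.39 and 0.31.

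Several members also differed between dishes at steady state. In GM-noTC, Hmox1 was higher (4.69% of all genes) and Nqo1, Gclm and Srxn1 were lower (2.85%) than in GM-TC. These 4 calls were lost when only the 4 libraries of the comparison were fitted, and 2 were left without GM-noTC replicate 1 or replicate 2. In M-noTC, Hmox1 and Srxn1 were higher (16.1%) and Nfe2l2 lower (11.1%) than in M-TC, and 5 genes were called in a fit to the 4 libraries, with a replicate block or without the expression filter. The Srxn1 call in M did not pass without M-TC replicate 1 or M-noTC replicate 1. Srxn1 thus went down on noTC dishes in GM and up in M, and it was the 1 gene whose dish difference differed between the cells (11.2% of all genes), by -0.48 (SE 0.082, adjusted p = 0.00044 from edgeR). The cardiac muscle markers and the shared reads given above differ between the same groups. From GM-TC to GM-noTC the summed dendritic cell markers went from 21.6 to 21.7 CPM up to 33.6 CPM in both libraries. The neutrophil markers went from 8.79 to 9.82 up to 13.6 to 15.6 CPM. The sum of 5 mast cell markers went from 31.3 to 36.8 down to 20.7 to 21.7 CPM. That sum was nearly all Kit, the 1 marker at 1 CPM or more, with means of 33.4 CPM (GM-TC) and 20.6 CPM (GM-noTC). Cpa3 was at 0.585 and 0.575 CPM. The part of these markers in the values was not tested. After subtraction of the shared reads no call was lost, and Slc7a11 in M-noTC was called lower, at -0.33 (adjusted p = 0.032 from edgeR).

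At steady state 7 of the 10 genes were called between GM and M cells on either dish, where calls were frequent among all genes too. In GM-TC, 6 genes were higher than in M-TC, namely Nqo1, Slc7a11, Txnrd1, Srxn1, Gsr and Prdx1 (32.6% of all genes), and Gclc was lower (28.9%). On noTC dishes the 5 higher genes were Nqo1, Slc7a11, Srxn1, Gsr and Prdx1 (31.4%), and the 2 lower ones Gclc and Gclm (30.7%), Gclm not passing without GM-noTC replicate 1 or M-noTC replicate 1. With library size alone the median of all genes was -0.29 on TC and -0.289 on noTC dishes, Txnrd1 turned to -0.041 on TC and Srxn1 to -0.045 on noTC, neither called, and the counts higher and lower were 5 and 4 on TC and 4 and 5 on noTC dishes. Upon LPS challenge on TC dishes 3 genes, Nqo1, Slc7a11 and Prdx1, were higher in GM (33.9% of all genes). The 6 lower genes were Hmox1, Gclm, Gclc, Txnrd1, Srxn1 and Gsr (32.9%). On noTC dishes after LPS, Nfe2l2, Nqo1, Slc7a11, Txnrd1 and Prdx1 were higher in GM (33.5%) and Gclm, Gclc and Gsr lower (32.6%), and with library size alone 4 were higher and 3 lower, without Txnrd1. Txnrd1, at 0.13 (adjusted p = 0.02 from edgeR), also did not pass without GM-noTC-LPS replicate 2 or M-noTC-LPS replicate 1. Markers of other cells also differed with the growth factor: 5 dendritic cell markers summed to 21.6 to 73.1 CPM in GM and at most 1.56 CPM in M groups, and 7 neutrophil markers to 8.79 to 22.7 and at most 1.34 CPM. The neutrophil markers Ly6g, Elane and Mpo had no count in any M group. By the study's methods GM cells were also seeded more densely than M cells, which cannot be told apart from the growth factor. The part of the markers in the differences between GM and M was not tested.

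**Figure D4:**
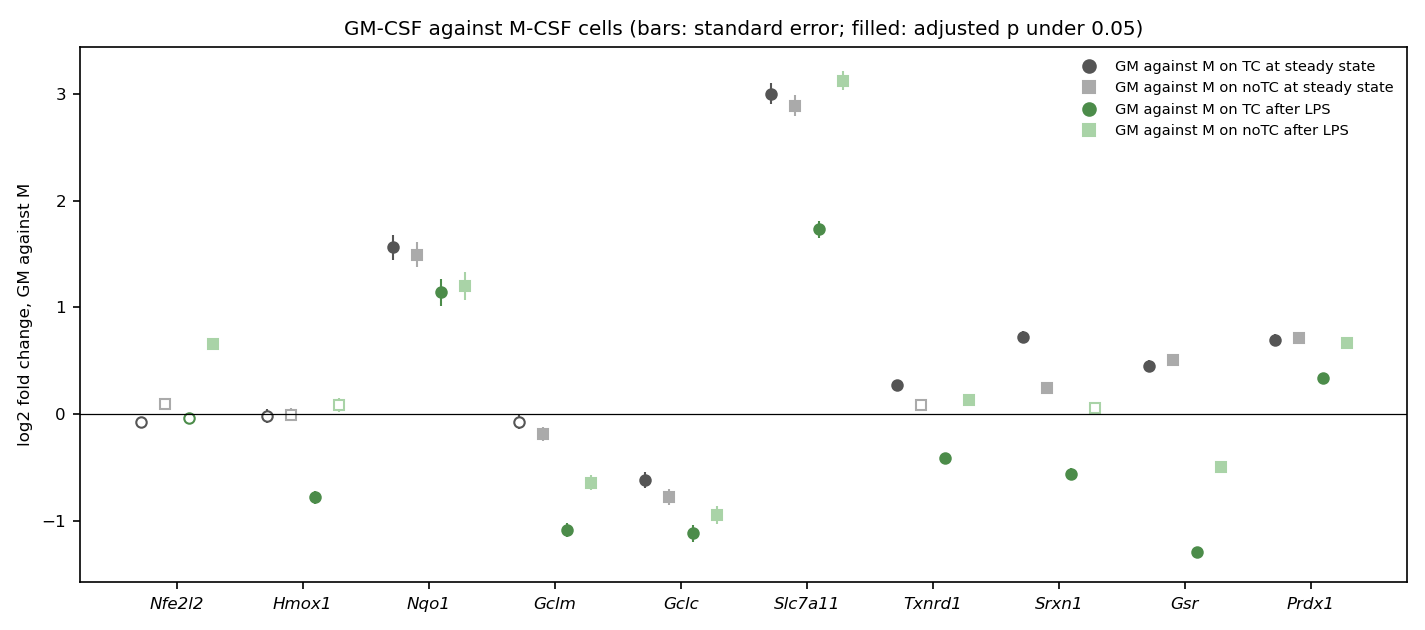
Log2 fold change of GM against M cells (vertical axis) for the 10 genes on TC and noTC dishes, at steady state and after LPS, with bars for the standard error and filled symbols for an adjusted p under 0.05. Nqo1 and Slc7a11 lie above 1 and Gclc below -0.6 in all 4 comparisons, while Gsr lies at 0.45 and 0.51 at steady state and at -1.29 and -0.49 after LPS. With library size alone, Txnrd1 on TC and Srxn1, Txnrd1 and Nfe2l2 on noTC dishes at steady state turn negative.

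Per kilobase of exon, Prdx1 had the highest level of the 10 genes in every group, from 370 ± 2.33 CPM per kb in M-noTC to 1209 ± 22.9 in GM-TC-LPS (SD, n = 2). The lowest level per kilobase within a group was that of Slc7a11 in M-TC (1.49 ± 0.25) and M-noTC (1.46 ± 0.00256). Within the GM groups it was that of Gclc (4.69 to 7.93), and Nqo1 was lowest in M-TC-LPS (5.82 ± 0.342) and M-noTC-LPS (5.57 ± 0.205). In GM-TC-LPS, Slc7a11 reached 161 ± 2.22 CPM per kb, next to Hmox1 at 163 ± 0.132, and in M-TC-LPS it reached 48.5 ± 0.249, below Nfe2l2 at 153 ± 10.7 and Txnrd1 at 155 ± 2.99. Txnrd1 and Nfe2l2 in M-TC-LPS did not differ beyond their spread.

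Nfe2l2 (ENSMUSG00000015839) had 399.5 and 394 CPM for GM-TC, 372 and 371 CPM for GM-noTC, 416 and 418 CPM for M-TC, and 344 and 351 CPM for M-noTC. Upon LPS challenge it had 562 and 570.3 CPM for GM-TC-LPS, 619 and 646 CPM for GM-noTC-LPS, 609.8 and 552 CPM for M-TC-LPS, and 396 and 406 CPM for M-noTC-LPS. The M-noTC-LPS libraries thus lay apart from the other LPS groups, which all exceeded 550 CPM, and below the lowest M-TC library. The log2 LPS response was 0.51 in GM-TC (SE 0.0498, adjusted p = 6.7e-09 from edgeR), 0.77 in GM-noTC (fold 1.70), 0.48 for M-TC and, for M-noTC, 0.21 (SE 0.0498, adjusted p = 0.00089 from edgeR). By library size alone these became 0.032 in GM-TC, not called, 0.26 in GM-noTC, called higher, and -0.35 for M-TC and -0.52 for M-noTC, both called lower. The dish difference in M cells was -0.26 at steady state (SE 0.0496, adjusted p = 0.00034 from edgeR) and -0.54 after LPS (SE 0.05, adjusted p = 8e-08 from edgeR). The difference between GM and M cells in Nfe2l2 was not called on TC dishes, at -0.07 (SE 0.0498) at steady state and -0.04 (SE 0.0496) after LPS, and on noTC dishes after LPS GM was higher by 0.66 (SE 0.0499, adjusted p = 1.2e-10 from edgeR). Over the 8 group means, the genes whose pattern lay nearest to Nfe2l2 among 11045 genes were Pik3ca and Zbtb39, with root mean square differences of 0.0679 and 0.0883 on the log2 scale.

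Hmox1 (ENSMUSG00000005413) encodes heme oxygenase 1, which breaks heme down to biliverdin, iron and carbon monoxide. It had 253 and 278 CPM for GM-TC, 326 and 332 CPM for GM-noTC, 267 and 270.3 CPM for M-TC, and 331 and 331 CPM for M-noTC. The noTC libraries were above the TC libraries in both cells, without overlap, by 0.31 in GM (SE 0.0632, adjusted p = 0.0026 from edgeR) and 0.30 in M (SE 0.0627, adjusted p = 0.00093 from edgeR). In the LPS groups it had 286 and 286 CPM for GM-TC-LPS, 329 and 353 CPM for GM-noTC-LPS, 521 and 460.2 CPM for M-TC-LPS, and 304 and 340.0 CPM for M-noTC-LPS. Only the M-TC-LPS libraries exceeded 400 CPM, and in the other 3 settings LPS was not called, at 0.11, 0.05 and -0.04 in GM-TC, GM-noTC and M-noTC. In M-TC the response was 0.87 (SE 0.0632, adjusted p = 3.2e-11 from edgeR), which with library size alone was 0.043 and not called, while those of the other 3 became -0.37, -0.46 and -0.76 and were called. The dish difference in M cells thus had opposite directions, higher on noTC at steady state and lower on noTC after LPS by 0.61 on the log2 scale (SE 0.0631, adjusted p = 3.5e-07 from edgeR). In GM-noTC-LPS Hmox1 was higher than in GM-TC-LPS by 0.26 (adjusted p = 0.028 from edgeR), a call lost without any 1 of the 4 libraries. The nearest patterns were those of Mat2a and Hyou1, at 0.134 and 0.137.

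Nqo1 (ENSMUSG00000003849), a quinone reductase often used as a readout of NRF2, differed with the growth factor in every setting and changed little with LPS. It had 24.3 and 27.8 CPM for GM-TC, 20.3 and 19.5 CPM for GM-noTC, 18.4 and 21.3 CPM for GM-TC-LPS, and 18.9 and 20.8 CPM for GM-noTC-LPS. In M cells it had 8.73 and 8.94 CPM for M-TC, 5.90 and 8.01 CPM for M-noTC, 8.66 and 9.41 CPM for M-TC-LPS, and 8.88 and 8.43 CPM for M-noTC-LPS. Every GM library exceeded every M library, and the difference was 2.95-fold on TC dishes at steady state (log2 1.56, SE 0.118, adjusted p = 1.1e-10 from edgeR) and 2.21-fold after LPS. LPS lowered it in GM-TC by 0.39 on the log2 scale (adjusted p = 0.0033 from edgeR), which did not pass without GM-TC replicate 2 or GM-TC-LPS replicate 1. In M-TC the LPS response was 0.03 (SE 0.138) and in M-noTC 0.29 (SE 0.136), neither called, and with library size alone they were -0.80 and -0.43, both called.

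Slc7a11 (ENSMUSG00000027737) encodes xCT, the light chain of the antiporter that imports cystine, from which cells draw cysteine for glutathione, in exchange for glutamate. At steady state it had 182 and 150.3 CPM for GM-TC, 149 and 152 CPM for GM-noTC, 23.2 and 18.3 CPM for M-TC, and 20.3 and 20.3 CPM for M-noTC. GM cells thus stood 7.99-fold above M cells on TC (log2 3.00, SE 0.099, adjusted p = 4.5e-17 from edgeR) and 7.41-fold on noTC dishes. LPS brought it to 2218 and 2262 CPM for GM-TC-LPS, 2244 and 2168 CPM for GM-noTC-LPS, 678 and 673 CPM for M-TC-LPS, and 230.4 and 276 CPM for M-noTC-LPS. The rise was 32.5-fold in M-TC (log2 5.02, SE 0.102, adjusted p = 2.9e-21 from edgeR), 12.5-fold in M-noTC, 13.5-fold in GM-TC and 14.7-fold in GM-noTC. The M-noTC-LPS libraries reached less than those of any other LPS group, and 2.67-fold less than M-TC-LPS (log2 -1.41, SE 0.0831, adjusted p = 1.3e-10 from edgeR). In GM cells the dish difference after LPS was -0.02 (SE 0.0794). GM exceeded M by 3.32-fold on TC and 8.71-fold on noTC dishes after LPS. The nearest patterns were those of the formyl peptide receptor gene Fpr1 and the actin bundling gene Fscn1, at 0.329 and 0.369.

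Gclc (ENSMUSG00000032350) and Gclm (ENSMUSG00000028124) encode the catalytic and the modifier subunit of glutamate-cysteine ligase, the rate-limiting enzyme of glutathione synthesis, and in M-noTC cells LPS moved them in opposite directions under TMM scaling. Gclc had 31.0 and 28.7 CPM for GM-TC, 29.3 and 28.2 CPM for GM-noTC, 49.1 and 42.1 CPM for M-TC, and 49.4 and 48.9 CPM for M-noTC. After LPS it had 19.1 and 19.2 CPM for GM-TC-LPS, 18.1 and 17.2 CPM for GM-noTC-LPS, 40.3 and 42.9 CPM for M-TC-LPS, and 33.9 and 33.9 CPM for M-noTC-LPS. All GM libraries lay below all M libraries, and LPS lowered it in GM-TC by 0.64 (SE 0.0832, adjusted p = 6.3e-07 from edgeR), in GM-noTC by 0.70 and in M-noTC by 0.54 on the log2 scale. In M-TC, where the groups overlapped, its fold change was -0.13 (SE 0.073, adjusted p = 0.11 from edgeR).

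Gclm had 96.6 and 107 CPM for GM-TC, 80.7 and 86.2 CPM for GM-noTC, 108 and 106 CPM for M-TC, and 97.1 and 92.9 CPM for M-noTC. After LPS it had 75.1 and 72.2 CPM for GM-TC-LPS, 69.2 and 74.5 CPM for GM-noTC-LPS, 152 and 160.1 CPM for M-TC-LPS, and 106 and 119 CPM for M-noTC-LPS. LPS lowered Gclm in GM-TC by 0.47 on the log2 scale (SE 0.0677, adjusted p = 2.7e-06 from edgeR) and raised it in M-TC by 0.55 (SE 0.0649, adjusted p = 1.1e-07 from edgeR), the latter turning to -0.28 with library size alone. The difference between these responses, -1.01, was called under every scaling. In M-noTC the response was 0.24 (adjusted p = 0.0024 from edgeR), not called without M-noTC-LPS replicate 2 and at -0.49 with library size alone, and in GM-noTC it was -0.22 (adjusted p = 0.0077 from edgeR), not called without GM-noTC replicate 2 or GM-noTC-LPS replicate 1.

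Gsr (ENSMUSG00000031584) encodes glutathione reductase, which returns oxidized glutathione to its reduced form with NADPH. It had 97.9 and 99.4 CPM for GM-TC, 109.7 and 104 CPM for GM-noTC, 102 and 106 CPM for GM-TC-LPS, and 117 and 116 CPM for GM-noTC-LPS. In M cells it had 74.4 and 69.8 CPM for M-TC, 74.6 and 76.0 CPM for M-noTC, 249.95 and 262 CPM for M-TC-LPS, and 162 and 166 CPM for M-noTC-LPS. GM libraries were thus above M libraries at steady state and below them after LPS, with no overlap on either dish. The LPS response was 3.55-fold in M-TC (log2 1.83, SE 0.0543, adjusted p = 2.4e-18 from edgeR) and 2.18-fold in M-noTC, and it was 0.08 in GM-TC (SE 0.0544), not called, and 0.13 in GM-noTC (adjusted p = 0.041 from edgeR) on the log2 scale. The GM-noTC call did not pass with DESeq2 or without 3 of the 4 libraries (GM-noTC replicate 2 and both GM-noTC-LPS replicates), and with library size alone both GM values were negative, at -0.40 and -0.38. M-noTC-LPS lay 1.56-fold below M-TC-LPS (log2 -0.64, SE 0.0522, adjusted p = 1.3e-08 from edgeR).

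Txnrd1 (ENSMUSG00000020250) encodes the cytosolic thioredoxin reductase, a selenoenzyme that keeps thioredoxin reduced. It had 273 and 259.6 CPM for GM-TC, 256 and 248 CPM for GM-noTC, 220.3 and 221 CPM for M-TC, and 241 and 233 CPM for M-noTC. After LPS it had 825 and 830.3 CPM for GM-TC-LPS, 794 and 816 CPM for GM-noTC-LPS, 1116 and 1087 CPM for M-TC-LPS, and 716 and 756 CPM for M-noTC-LPS. The order among the LPS groups was M-TC, GM-TC, GM-noTC and M-noTC, and the GM groups in the middle did not differ beyond their test (log2 -0.04, SE 0.0467, adjusted p = 0.80 from edgeR). The rise was 4.99-fold in M-TC (log2 2.32, SE 0.0494, adjusted p = 6e-21 from edgeR), 3.11-fold in M-noTC, 3.11-fold in GM-TC and 3.20-fold in GM-noTC.

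Srxn1 (ENSMUSG00000032802) encodes sulfiredoxin, which repairs overoxidized peroxiredoxins. It had 129 and 139 CPM for GM-TC, 114 and 110.1 CPM for GM-noTC, 79.4 and 83.4 CPM for M-TC, and 96.3 and 93.0 CPM for M-noTC. After LPS it had 158 and 150.4 CPM for GM-TC-LPS, 127 and 132 CPM for GM-noTC-LPS, 235 and 221 CPM for M-TC-LPS, and 121 and 128 CPM for M-noTC-LPS. M-TC-LPS stood above every other group, and M-noTC-LPS overlapped with GM-noTC-LPS. The LPS response was 2.80-fold in M-TC (log2 1.49, SE 0.0585, adjusted p = 4.4e-16 from edgeR) and 1.32-fold in M-noTC, the latter at -0.33 on the log2 scale with library size alone. In GM-TC and GM-noTC it was 0.20 and 0.21 (adjusted p = 0.0043 and 0.0036 from edgeR), and -0.28 and -0.30 with library size alone. M-noTC-LPS lay 0.87 below M-TC-LPS on the log2 scale (SE 0.0577, adjusted p = 5.4e-10 from edgeR). In GM the noTC libraries were lower by 0.26 at steady state and by 0.25 after LPS (adjusted p = 0.006 and 0.015 from edgeR), the latter not passing without GM-TC-LPS replicate 1 or either GM-noTC-LPS replicate.

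Prdx1 (ENSMUSG00000028691) encodes peroxiredoxin 1, an abundant thiol peroxidase that removes hydrogen peroxide. It had 1757 and 1995 CPM for GM-TC, 1825 and 1853 CPM for GM-noTC, 1169 and 1146 CPM for M-TC, and 1119.7 and 1129.7 CPM for M-noTC. After LPS it had 3729 and 3630.5 CPM for GM-TC-LPS, 3632 and 3608 CPM for GM-noTC-LPS, 2873 and 2966 CPM for M-TC-LPS, and 2186 and 2378 CPM for M-noTC-LPS. GM libraries were above M libraries in every setting, without overlap, by 1.62-fold on TC dishes at steady state and 1.26-fold after LPS. The LPS response was 2.52-fold in M-TC (log2 1.33, SE 0.0541, adjusted p = 7.4e-16 from edgeR), 2.03-fold in M-noTC, 1.96-fold in GM-TC and 1.97-fold in GM-noTC. M-noTC-LPS was 1.28-fold below M-TC-LPS (log2 -0.36, SE 0.0532, adjusted p = 3.8e-05 from edgeR).

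A list of 10 regulators of NRF2, among them KEAP1, BACH1 and the small MAF genes, was examined in the same way. Upon LPS challenge 7 of the 10 were higher and 2 lower in GM cells on either dish, and 8 were higher and 1 lower in M cells on either dish. Of all genes, 32.8% and 33.6% were higher and 34.2% and 34.0% lower in GM on TC and noTC dishes, and 37.6% and 36.4% were higher and 36.4% and 35.9% lower in M. Library size alone gave 6 and 4 higher and lower (GM-TC), 5 and 4 (GM-noTC), 4 and 3 (M-TC), and 5 and 3 (M-noTC). That scaling lowered the medians of all genes as given above. Keap1 (ENSMUSG00000003308) had 36.1 and 32.8 CPM for GM-TC, 55.3 and 52.4 CPM for GM-TC-LPS, 43.7 and 44.2 CPM for M-TC, and 107 and 105 CPM for M-TC-LPS. It rose in all 4 settings, by 0.65 (GM-TC), 0.56 (GM-noTC), 1.27 (M-TC, SE 0.0588, adjusted p = 8.7e-15 from edgeR) and 1.09 (M-noTC) on the log2 scale, and with library size alone these values were 0.17, 0.052 (not called), 0.44 and 0.37. Its dish difference in M-noTC-LPS was -0.10 (SE 0.0565, adjusted p = 0.24 from edgeR). Bach1 (ENSMUSG00000025612), the repressor, had 110.2 and 93.7 CPM for GM-TC, 53.5 and 48.1 CPM for GM-TC-LPS, 129 and 120.2 CPM for M-TC, and 144 and 153 CPM for M-TC-LPS. It was 2.01-fold lower after LPS in GM-TC (SE of the log2 value 0.0729, adjusted p = 4.5e-11 from edgeR), and it rose by 0.25 for M-TC and 0.65 for M-noTC on the log2 scale, which with library size alone were -0.57 and -0.071. The difference in log2 LPS response of Bach1, GM minus M, was -1.26 on TC and -1.51 on noTC dishes (adjusted p = 9.5e-10 and 5.2e-11 from edgeR).

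Among the regulators, the small MAF genes Maff and Mafk and Sqstm1, whose product p62 binds KEAP1, rose in all 4 settings. Maff (ENSMUSG00000042622) went from 3.08 and 2.50 CPM for GM-TC to 28.7 and 28.3 CPM for GM-TC-LPS, and from 0.877 and 1.46 CPM for M-TC to 28.4 and 31.3 CPM for M-TC-LPS, rises of 10.3-fold and 25.2-fold. Mafk (ENSMUSG00000018143) reached 181 and 181 CPM for M-TC-LPS from 21.9 and 21.8 CPM for M-TC, an 8.28-fold rise (log2 3.05, SE 0.0628, adjusted p = 3.6e-21 from edgeR). Sqstm1 (ENSMUSG00000015837) reached 3307 and 3135 CPM for M-TC-LPS, 2574 and 2759.5 CPM for M-noTC-LPS, 1573 and 1501 CPM for GM-TC-LPS, and 1469 and 1476 CPM for GM-noTC-LPS. In M-noTC-LPS 3 of the 10 regulators were lower than in M-TC-LPS (12.9% of all genes) and none was higher (10.4%). The log2 fold changes were -0.51 for Mafg, -0.42 for Maff and -0.27 for Sqstm1 (adjusted p of 9e-06, 0.0061 and 0.00021 from edgeR). The LPS response in M cells was lower on noTC dishes for 1 of the 10 regulators and higher for 1 (10.6% of all genes in either direction). Mafg had 58.2 and 54.7 CPM for M-TC-LPS and 38.9 and 40.6 CPM for M-noTC-LPS. In GM-noTC-LPS none of the 10 was called by edgeR against GM-TC-LPS, none had an unadjusted p under 0.05, and DESeq2 called 0. Bach2 had 1.26 and 1.45 CPM in GM-TC and 0.0517 and 0.279 CPM, from 1 and 6 counts, in GM-TC-LPS, and it was called lower (adjusted p = 0.00013 from edgeR).

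**Figure D5:**
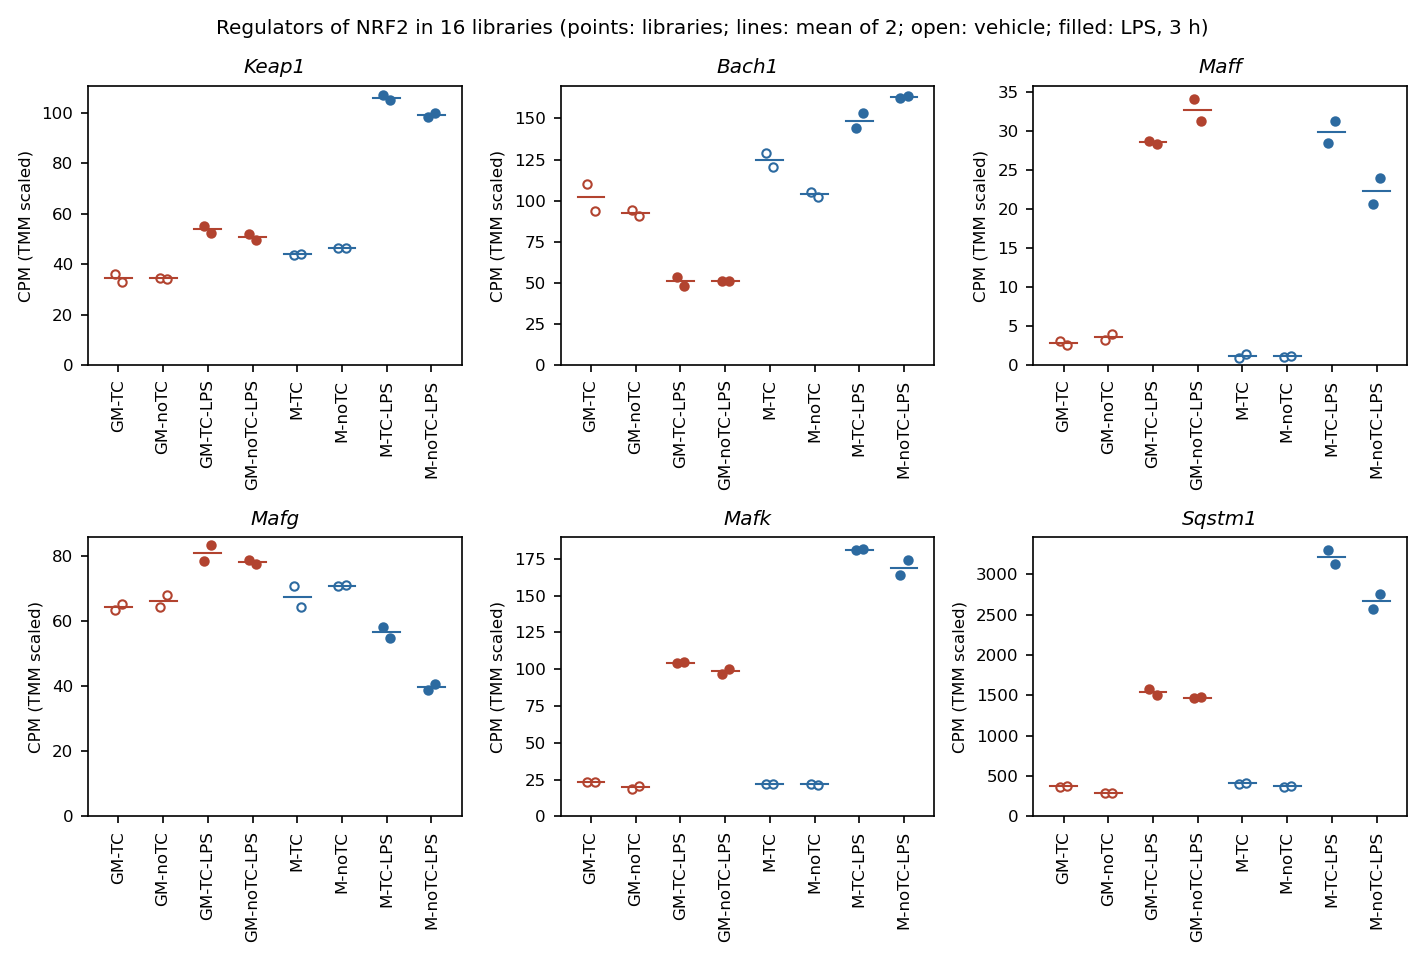
Level of 6 regulators of NRF2 in CPM with TMM scaling (vertical axes, from 0) in the 8 groups (horizontal axes), with a point per library, a line at the mean of 2, open points for vehicle and filled points for LPS. Bach1 lies near 50 CPM in the GM groups after LPS and between 144 and 164 CPM in the M groups, and Mafg and Maff are lower in M-noTC-LPS than in M-TC-LPS.

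A list of 36 other NRF2 targets, of which 33 were tested, was mostly lower on noTC dishes in LPS-treated M cells too, with a smaller median. In M-noTC-LPS 18 of the 33 were lower and 1 was higher than in M-TC-LPS, where 12.9% and 10.4% of all genes were, and 28.5% and 7.41% of the 1673 LPS-induced genes, with a median log2 fold change of -0.24, and 13 were lower and 2 higher with library size alone. The largest decreases were those of Osgin1, an oxidative stress induced growth inhibitor, by 1.19 (SE 0.236, adjusted p = 0.00078 from edgeR), and of the glutathione transferases Gsta3 by 1.18 and Mgst1 by 0.76 on the log2 scale. Gsta3 and Mgst1 were already lower in M-noTC than in M-TC at steady state, at -0.99 and -1.03. The LPS response in M cells was lower on noTC dishes for 8 of the 33 and higher for 1. Among the 1673 LPS-induced genes it was lower for 20.3% and higher for 3.53%. The gene that was higher was the aldo-keto reductase Akr1b8, at 47.3 and 46.3 CPM in M-TC-LPS against 56.4 and 56.7 CPM in M-noTC-LPS. In GM-noTC-LPS 2 of the 33 were higher, Akr1b8 and Idh1 (2.08% of all genes), and none was lower (0.727%). The dish difference after LPS was called as differing between GM and M for 12 of the 33 (10.6% of all genes), all less negative or more positive in GM.

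At steady state 15 of the 33 targets differed between M-noTC and M-TC, 8 higher (16.1% of all genes) and 7 lower (11.1%). Mgst1 had 44.6 and 48.3 CPM in M-TC and 21.7 and 23.6 in M-noTC, Gsta3 had 6.18 and 6.66 and then 3.50 and 3.00, and catalase (Cat) had 638 and 639 and then 439 and 452. In GM-noTC, 2 were higher (4.69% of all genes) and 3 lower (2.85%) than in GM-TC, among the latter Mgst1 at -0.36 and Htatip2 at -0.34 (adjusted p of 0.0021 and 0.015 from edgeR). Akr1b8 was higher in GM-noTC, by 0.44 (adjusted p = 0.0073 from edgeR).

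Between GM and M cells at steady state 18 of the 33 targets were higher and 11 lower on TC dishes (32.6% and 28.9% of all genes), and 19 and 9 on noTC dishes (31.4% and 30.7%), which became 16 and 14, and 16 and 13, with library size alone. Gstm2, a glutathione transferase, had 27.5 and 29.8 CPM in GM-TC against 0.558 and 0.823 CPM in M-TC, a 41.0-fold difference (log2 5.36, SE 0.159, adjusted p = 6.4e-18 from edgeR). Ephx1, the microsomal epoxide hydrolase, was 3.93-fold higher in GM-TC, at 101 and 107 CPM against 25.1 and 27.7. Akr1b8 was 4.40-fold lower, at 9.19 and 9.78 CPM in GM-TC against 43.1 and 40.7 CPM in M-TC. Upon LPS challenge 9 targets were higher and 7 lower in GM-TC, then 11 and 5 (GM-noTC), 17 and 7 (M-TC), and 16 and 7 (M-noTC). In GM-TC 32.8% of all genes were higher and 34.2% lower, in GM-noTC 33.6% and 34.0%, in M-TC 37.6% and 36.4%, and in M-noTC 36.4% and 35.9%. Library size alone gave 5 and 25, 5 and 26, 4 and 23, and 3 and 26. Under that scaling the median log2 fold change of all genes was -0.53 (GM-TC), -0.542 (GM-noTC), -0.834 (M-TC) and -0.729 (M-noTC). Osgin1 fell in all 4 settings under either scaling, with log2 fold changes of -2.93 (GM-TC), -2.73 (GM-noTC), -2.91 (M-TC) and -3.76 (M-noTC).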

How the data were processed

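The authors trimmed reads with fastp 0.18.0, removed ribosomal reads with Bowtie2 2.2.8, aligned with HISAT2 and quantified genes with StringTie 1.3.1 and RSEM, by the submitters' processing notes and the methods. The deposited values are RSEM expected counts per gene without normalization, and the genome build and annotation are not given in the sources used here. Between 6.56% and 8.19% of values per library were not whole, and all were rounded. Groups came from the sample titles. The main test was edgeR 4.0.16 in R 4.3.3: expression filter by group, TMM scaling, and 1 quasi-likelihood fit over 16 libraries and 8 groups, with Benjamini-Hochberg adjustment over 12514 genes and a threshold of 0.05. The common dispersion was 0.00226. SEs were derived from the fold change and its F statistic. Fits were tested on simulated data with 200 changed genes. Replicates differed by more than sampling noise, so none was merged. Their spread relative to sampling noise (chi-square per degree of freedom) was 12.2 for GM-TC and 1.9 to 4.87 for the other groups. The fit shares its estimate of the spread among all groups, so SEs and p-values of comparisons with GM-TC may be too small.

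The 10 genes and the lists were chosen with earlier results of these data known. All 10 are named, with Keap1, Bach1, up to 3 list genes per comparison with the largest called change at 1 CPM or more, and for Nfe2l2, Hmox1 and Slc7a11 the 2 genes of 1 CPM or more with the smallest root mean square difference over the 8 centred group means of log2 (CPM + 0.5). Mafg was named after its values were seen. Marker sums are CPM by library size. Levels per kilobase used exon unions of GENCODE M21. Alternatives were library size alone, DESeq2's size factors, no filter, DESeq2 1.42.0, only the libraries of a comparison, a replicate block, leaving out each library, and subtraction of shared reads. The share of those reads was the median excess of noTC over TC libraries, relative to the other libraries, among genes under 1 CPM in TC and at 100 CPM or more in the others (15 genes in GM, 21 in M).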

Additional observations from a re-analysis of the deposited data

Results flagged for a closer look

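The differences between responses below were called in edgeR's fit at a BH-adjusted p under 0.05, and they are log2 differences between fold changes in 2 kinds of cell or on 2 dishes. The LPS response of GM minus that of M cells on TC dishes was -0.763 for Hmox1, -1.01 for Gclm, -0.505 for Gclc, -1.27 for Slc7a11, -0.683 for Txnrd1, -1.29 for Srxn1, -1.75 for Gsr and -0.363 for Prdx1. On noTC dishes it was 0.562 for Nfe2l2, -0.456 for Gclm and -0.999 for Gsr.

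In M cells, the LPS response on noTC minus that on TC dishes was -0.272 for Nfe2l2, -0.907 for Hmox1, -0.307 for Gclm, -0.403 for Gclc, -1.38 for Slc7a11, -0.682 for Txnrd1, -1.09 for Srxn1, -0.700 for Gsr and -0.314 for Prdx1. The dish difference of GM minus that of M cells at steady state was -0.476 for Srxn1. After LPS it was 0.695 for Nfe2l2, 0.863 for Hmox1, 0.444 for Gclm, 1.39 for Slc7a11, 0.541 for Txnrd1, 0.619 for Srxn1, 0.801 for Gsr and 0.332 for Prdx1.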

How the results depend on the processing

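A value counted as reversed if its direction turned and it was called in the main fit, in the alternative or in both. No value of the 10 genes was reversed under DESeq2's size factors, DESeq2, no filter or the comparison's libraries only. None was under the replicate block, the subtraction of shared reads or leaving out a library. With library size alone 18 were reversed. In GM against M at steady state these were Txnrd1 on TC (-0.041) and Nfe2l2 (-0.197), Txnrd1 (-0.201) and Srxn1 (-0.045) on noTC dishes. For LPS in GM-TC they were Hmox1 (-0.373), Srxn1 (-0.280) and Gsr (-0.401), in GM-noTC Hmox1 (-0.457), Srxn1 (-0.304) and Gsr (-0.382), in M-TC Nfe2l2 (-0.349), Nqo1 (-0.798) and Gclm (-0.281), and in M-noTC Nfe2l2 (-0.521), Nqo1 (-0.432), Gclm (-0.487) and Srxn1 (-0.330). The difference of LPS responses between GM and M on noTC dishes was 0.174 for Prdx1. That setting moves the median of all genes, as given above.

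The number of genes called for the dish in GM at steady state, 4, was 0 with the comparison's libraries only and 2 to 4 without single libraries. In M at steady state, 3 became 5 with no filter, with the comparison's libraries only and with the replicate block. The block ended no call, added 4 among the members, and moved no other count by over 1.5 times, and libraries of the same replicate number had deviations that correlated by -0.0636 to 0.0361, so the numbers were not used to pair them, and whether equal numbers share a mouse or batch is not given in the sources used here. In GM after LPS, 2 became 0 to 1 without single libraries. The LPS response of GM against M on noTC dishes gave 3 genes, 7 with library size alone and 5 with the comparison's libraries only. The response on noTC against TC dishes gave 0 in GM, 1 with DESeq2 and 0 to 2 without single libraries, and 9 in M, 5 to 9 without single libraries. The dish difference of GM against M at steady state gave 1, 2 with DESeq2 and 1 to 2 without single libraries. A group reduced to 1 library was assumed to vary like the others. The cause of these changes was not tested.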
